A study of Mus musculus with 2 samples.

Results

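Il6, Lif, Il33 and Csf1 encode cytokines, and Il6st, Osmr and Il1r1 encode receptor chains. Stat3 encodes the transcription factor downstream of the IL-6 family and Socs3 its feedback inhibitor. These 9 genes, chosen by name from the 31054 genes of the tables, were described in single cells of mouse gonadal white adipose tissue (gWAT), and none of them was used to choose the cells. The cells came from 18-month-old male mice of the genotype p16-CreERT2/R26-LSL-tdTomato, in which a tamoxifen-dependent Cre made from the p16 (Cdkn2a) gene turns on the red reporter tdTomato. After a course of daily tamoxifen injections, the stromal vascular fraction was digested at body temperature, CD31- CD45- cells (without the endothelial and the immune surface marker) were sorted, and 1 droplet library was made of the tdTomato-positive (Tom+) and 1 of the tdTomato-negative (Tom-) cells. Both groups carried the same alleles and received tamoxifen, and the reporter marks cells that expressed p16 around the time of the injections, not at the time of the sort. How many mice were pooled is not given in the sources used here. With 1 library per group the sort and the preparation cannot be told apart, no test was possible, and every interval given here is at 95% and covers counting error only.

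IL-6, LIF and oncostatin M are related cytokines whose receptors share the chain gp130, encoded by Il6st. IL-6 binds gp130 through its own receptor IL-6R (Il6ra), LIF through LIFR, and oncostatin M through OSMR. The bound complex activates JAK kinases, which phosphorylate STAT3, and STAT3 induces SOCS3, which in turn inhibits the kinases. IL-33 is a nuclear protein of barrier and stromal cells that acts as an alarm signal on ST2-bearing (Il1rl1) immune cells when cells are damaged, IL-1R1 receives IL-1, and CSF1 sustains macrophages through CSF1R. In adipose tissue, stromal IL-33 is known to maintain regulatory T cells and innate lymphoid cells, and IL-6 and LIF are among the factors that senescent fibroblasts often secrete.

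The DNA just before an annotated start of the cytokine and feedback genes is shown first. The responsive genes of this pathway are switched on through short motifs that STAT, AP-1 and NF-kB factors recognize. Of the 9 genes, 9 had a window of 250 bases upstream of an annotated start in RefSeq (GRCm38.p6), 11 windows in all. The letters searched on both strands were TTCNNNGAA for STAT, TGA and TCA around any 1 base for AP-1 and GGNNTTTCC for NF-kB, and the matches are in capitals below. At least 1 of these motifs was found in the windows of Il6, Lif, Csf1 and Socs3. These windows are written 5′ to 3′ on the strand of the gene, toward the annotated start.
Il6, chr5:30012864-30013113, plus strand: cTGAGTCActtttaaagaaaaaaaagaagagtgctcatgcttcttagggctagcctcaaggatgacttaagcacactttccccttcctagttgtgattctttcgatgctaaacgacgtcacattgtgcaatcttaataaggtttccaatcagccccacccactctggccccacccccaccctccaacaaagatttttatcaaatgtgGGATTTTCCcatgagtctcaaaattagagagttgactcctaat
Lif, chr11:4257318-4257556, plus strand: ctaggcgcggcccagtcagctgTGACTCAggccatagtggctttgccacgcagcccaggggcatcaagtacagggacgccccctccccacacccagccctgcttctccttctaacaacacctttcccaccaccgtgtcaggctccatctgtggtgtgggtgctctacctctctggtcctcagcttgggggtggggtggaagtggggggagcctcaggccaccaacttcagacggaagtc
Csf1, chr3:107760470-107760719, minus strand: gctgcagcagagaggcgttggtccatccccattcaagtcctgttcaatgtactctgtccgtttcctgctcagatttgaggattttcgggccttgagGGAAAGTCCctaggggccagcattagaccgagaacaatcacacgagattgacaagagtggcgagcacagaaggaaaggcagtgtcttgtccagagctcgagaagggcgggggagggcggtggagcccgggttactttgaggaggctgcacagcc
Socs3, chr11:117969452-117969616, minus strand: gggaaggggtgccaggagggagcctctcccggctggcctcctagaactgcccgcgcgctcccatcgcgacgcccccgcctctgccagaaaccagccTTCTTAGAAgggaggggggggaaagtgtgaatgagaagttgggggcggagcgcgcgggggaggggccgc
The Il6 window held an AP-1 match (TGAGTCA) 249 to 243 bases and an NF-kB match (GGATTTTCC) 43 to 35 bases upstream of the start. Lif had an AP-1 match (TGACTCA) at 228 to 222 bases, Csf1 an NF-kB match (GGAAAGTCC) at 154 to 146 bases, and Socs3 the only STAT match (TTCTTAGAA) of the 11 windows, at 154 to 146 bases. The Lif and Socs3 windows are printed only up to the first base of an annotated exon that lies within them. By the gene positions given below, the Socs3 window lies inside the annotated gene, past its first base. It is upstream of the RefSeq start used here only. No match was found in the windows of Il33, Il6st, Osmr, Il1r1 and Stat3. Among all 32851 windows of this length, 7.02% held the STAT letters, 6.75% the AP-1 letters and 4.93% the NF-kB letters. A match is a run of letters, not a bound site.

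Levels are given as CPM, the unique molecular identifiers (UMIs) of a gene per 1000000 UMIs summed over the cells of 1 library and class. Cells were kept above 1000 and below 7000 detected genes, where mitochondrial UMIs made up less than 8%, 3524 of 5566 barcodes of the Tom+ library (61119807 UMIs in all) and 6717 of 11838 of the Tom- library (96872394 UMIs). Mesothelial cells, the flat cells that line the fat pad, were those with at least 10 UMIs summed over Msln, Upk3b, Krt19, Lrrn4 and Upk1b, and stromal cells those with fewer than 5. This gave 250 mesothelial cells (7.09%) and 3263 stromal cells in the Tom+ library and 1887 mesothelial cells (28.1%) and 4800 stromal cells in the Tom- library, with 11 and 30 cells between the limits. The mesothelial markers Bnc1, Krt8, Krt18 and Gpm6a, which the rule did not use, stood in the stromal cells at 0.285% to 0.460% of their mesothelial level in the Tom+ library and at 0.725% to 1.26% in the Tom- library, while Wt1 stood at 35.6% and 51.3%. Adipocyte progenitor markers (Pdgfra, Dcn, Lum, Col1a1, Col3a1, Ly6a, Cd34) summed to 29800 and 31190 CPM in Tom+ and Tom- stromal cells. The class also held cells of other kinds: immunoglobulin and B cell genes (Jchain, Igkc, Ighm, Mzb1) summed to 59860 CPM in the Tom+ and 14510 CPM in the Tom- stromal cells, so it is named by its rule and not as one cell type. Median depth was 14235 UMIs per Tom+ and 11270 per Tom- stromal cell, and 18602 and 14753 per mesothelial cell. The barcode lists shared 2224 barcodes, of which 9 passed the filter in both libraries. A barcode of the other list was carried by 40.0% of Tom+ and 11.0% of Tom- mesothelial cells and by 12.4% and 1.56% of stromal cells. tdTomato RNA stood at 211 CPM in Tom+ against 13.1 CPM in Tom- stromal cells, and at 780 and 8.25 CPM in mesothelial cells, the order of the labels of the sort. Cdkn2a, the gene of p16, was counted as a whole gene and not by transcript. It stood at 4.66 CPM (4.08 to 5.29) in Tom+ against 5.79 CPM (5.18 to 6.44) in Tom- stromal cells. The Tom+ value was thus the lower one. These level intervals overlap by little, and no interval of the ratio is given for Cdkn2a, so no direction is read. In mesothelial cells Cdkn2a stood at 12.4 CPM (9.59 to 15.8) and 8.47 CPM (7.50 to 9.53). By qPCR with primers for p16Ink4a, the paper reports p16 as higher in Tom+ progenitor cells sorted from old mice. The stromal values here stand in the other order, but they are whole-gene counts over a class with cells of other kinds. The measures are thus unlike, and no conflict is read.

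In stromal cells, Il6, Il33 and Socs3 RNA was lower in the Tom+ than in the Tom- library by more than 1.5-fold, 3 of the 9 genes against 3.25% of the 9778 genes averaging 5 CPM or more. None of the 9 genes was higher by that fold, against 3.86% of genes. The median of their log2 ratios (Tom+ over Tom-) was -0.42, beside 0.07 over all those genes. The 8 stromal clusters with at least 30 cells of each library, described further on, were also weighted alike in both libraries. The log2 ratio was then -0.09 for Il6, -0.53 for Il33 and -0.55 for Socs3, none of them past 1.5-fold. Cluster 11, left out for its 28 Tom+ cells, held 2.52% of Tom+ and 10.8% of Tom- stromal Il33 UMIs. The weighted Il33 ratio does not cover it. In the mesothelial cells the libraries were closer: of the 8 genes averaging 5 CPM or more, 1, Il6, was lower by more than 1.5-fold, against 1.16% of 10014 genes, and 0 were higher, against 1.87%. Without the cells whose barcode is in both lists, the stromal log2 ratios were -1.13 for Il6, -1.72 for Il33 and -0.76 for Socs3, and the mesothelial one was -1.22 for Il6. With all barcodes kept, the mesothelial Il6 ratio came within 1.5-fold, at -0.52, without doublet calls, at -0.56 with cells thinned, and at -0.54 as the mean within ranges of immediate early genes. Over the mesothelial cells the median log2 ratio was -0.06, beside 0.03 over all genes. The plots of levels and of ratios show each gene in the 4 groups of cells.

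**Figure D1:**
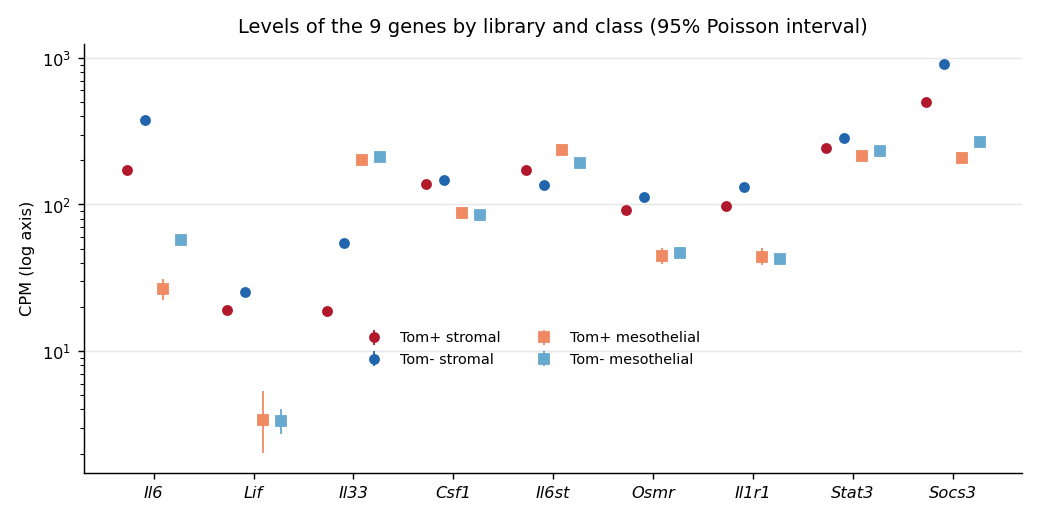
CPM (log axis) of the 9 genes in Tom+ and Tom- stromal and mesothelial cells, 1 point per library and class with its 95% Poisson interval. Il6, Lif and Socs3 are highest in Tom- stromal cells, and Il33 stands near 200 CPM in both mesothelial groups (201 and 211 CPM) and below 55 CPM in both stromal groups (18.7 and 54.4 CPM).

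**Figure D2:**
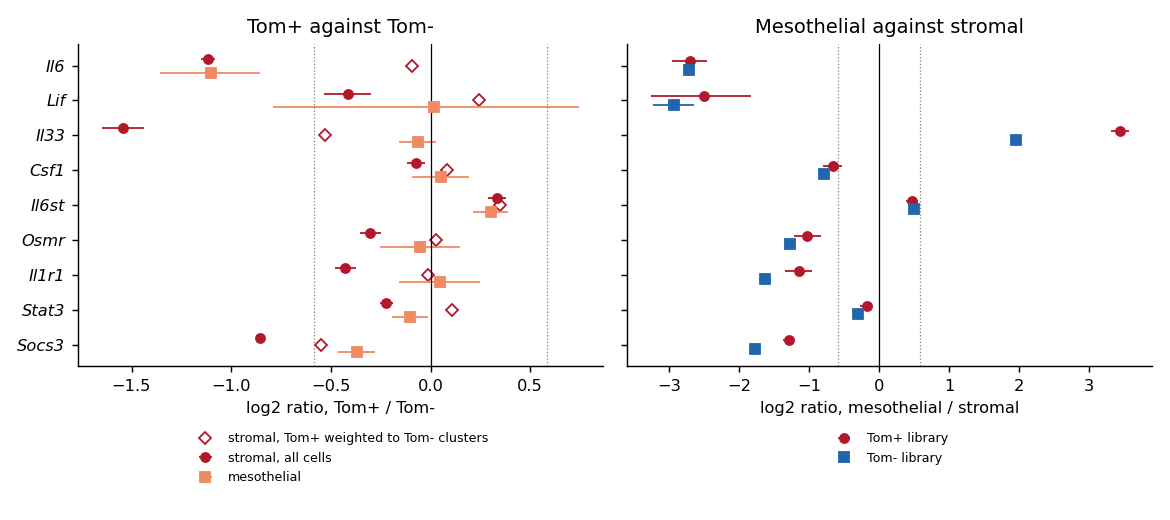
Log2 ratios of the 9 genes with 95% counting intervals, Tom+ over Tom- on the left and mesothelial over stromal on the right, with dotted lines at 1.5-fold either way. Open diamonds give the stromal ratio with Tom+ cells weighted to Tom- cells over the 8 clusters with at least 30 cells of each library. Il6 lies at -1.12 for all stromal cells and at -0.09 when weighted.

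Il6 (ENSMUSG00000025746, chr5:30013114-30019981 of GRCm38, plus strand) encodes interleukin 6, the best known cytokine of the family. Its level was 173 CPM (169 to 177) in Tom+ against 375 CPM (370 to 380) in Tom- stromal cells, and 26.5 CPM (22.3 to 31.2) in Tom+ against 56.8 CPM (54.3 to 59.5) in Tom- mesothelial cells. The Tom+ level was thus the lower in both classes. In stromal cells the log2 ratio was -1.12 (-1.15 to -1.08), a 2.17-fold lower level. In the mesothelial cells it was -1.10 (-1.36 to -0.85), but this value rested on a small set of cells. Scrublet, which scores barcodes for likely doublets, called 104 of the 1887 Tom- mesothelial cells, and these held 709 of their 1839 Il6 UMIs. It called 2 of the 250 Tom+ mesothelial cells. Without the doublet calls the levels were 26.5 and 37.9 CPM and the log2 ratio was -0.52, within 1.5-fold. The caller cannot be taken to have worked in the Tom+ library, so this step removed cells almost only from the Tom- side.

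Il6 RNA was unevenly spread over the stromal cells. To compare shares of cells, each cell was thinned at random to 7563 UMIs, which left out 271 Tom+ and 647 Tom- stromal cells that were shallower. At that depth, at least 1 Il6 UMI was found in 24.7% (23.2 to 26.3) of Tom+ and 41.3% (39.8 to 42.8) of Tom- stromal cells (31.0% and 46.4% without thinning). In mesothelial cells the shares were 13.8% (9.73 to 18.7) and 14.5% (12.9 to 16.2), with intervals that overlap. A small number of cells carried most of the RNA: the 10% of stromal cells with the most Il6 held 82.9% of its UMIs in the Tom+ and 68.3% in the Tom- library. Cells with 20 or more Il6 UMIs made up 1.17% of Tom+ (35 cells) and 3.35% of Tom- (139 cells) stromal cells, and the highest cells had 64 and 78 UMIs. The mesothelial level was 15.3% and 15.2% of the stromal one, while the 7 progenitor markers ranged from 3.87% (Lum) to 148% (Cd34) in the Tom+ and from 8.84% to 143% (the same genes) in the Tom- library, with Ly6a at 15.3% and 15.1%. Without doublet calls the Tom- mesothelial level was 37.9 CPM in place of 56.8 CPM, so the 15.2% includes UMIs of these calls. The part of free RNA, and of doublets that were not called, was not tested.

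Lif (ENSMUSG00000034394, chr11:4257557-4272514, plus strand) encodes leukemia inhibitory factor, a gp130 cytokine that acts through LIFR. Lif stood at 19.1 CPM (17.9 to 20.3) in Tom+ against 25.5 CPM (24.2 to 26.8) in Tom- stromal cells, with a log2 ratio of -0.42 (-0.53 to -0.30). With the libraries given the same cluster make-up the ratio turned to 0.24, and no direction is read. It was near the counting limit in mesothelial cells, at 3.38 CPM (2.0 to 5.34, from 18 UMIs) and 3.34 CPM (2.74 to 4.03). Of the 108 Tom- mesothelial UMIs, 56 lay in cluster 13, described further on, where 80.7% of these Tom- cells were doublet calls. In the mesothelial cells of cluster 12, Lif stood at 3.61 and 1.77 CPM (log2 ratio 1.03, 0.15 to 1.84), from 17 and 52 UMIs. Thinned shares were 8.59% and 9.51% of Tom+ and Tom- stromal cells (13.8% and 12.1% without thinning), so the order of the shares went with depth and the thinned intervals overlap.

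Il33 (ENSMUSG00000024810, chr19:29925114-29960718, plus strand) encodes the alarmin IL-33. It showed the reverse of the Il6 pattern between classes. Mesothelial cells had 201 CPM (190 to 214) in the Tom+ and 211 CPM (206 to 216) in the Tom- library, and stromal cells only 18.7 CPM (17.5 to 19.9) and 54.4 CPM (52.5 to 56.3). Among mesothelial cells the libraries did not differ beyond counting error, with a log2 ratio of -0.07 (-0.16 to 0.03). In stromal cells the Tom+ level was 2.91-fold lower, with a log2 ratio of -1.54 (-1.65 to -1.44). At least 1 UMI was seen in 67.6% of Tom+ and 65.7% of Tom- mesothelial cells after thinning (83.6% and 80.7% without), and in 7.39% and 17.1% of stromal cells (10.8% and 21.9% without). As a share of its mesothelial level, stromal Il33 was 9.27% in the Tom+ and 25.8% in the Tom- library, above the 4 mesothelial markers other than Wt1 given above.

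Csf1 (ENSMUSG00000014599, chr3:107741048-107760469, minus strand), the macrophage growth factor, had the smallest ratio of the cytokines between the libraries in stromal cells. It stood at 139 CPM (136 to 142) in Tom+ against 146 CPM (143 to 149) in Tom- stromal cells, and at 87.7 CPM (80.0 to 96.1) and 84.7 CPM (81.6 to 88.0) in mesothelial cells. The stromal log2 ratio of -0.07 (-0.12 to -0.03) turned to 0.08 when the libraries were given the same cluster make-up, so no direction is read from it.

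Il6st (ENSMUSG00000021756, chr13:112464070-112510086, plus strand), which encodes the shared chain gp130, was the only one of the 9 genes that was higher in Tom+ cells of both classes beyond counting error. Its level was 171 CPM (167 to 174) in Tom+ against 136 CPM (132 to 139) in Tom- stromal cells, with a log2 ratio of 0.33 (0.29 to 0.38). In mesothelial cells it was 235 CPM (222 to 249) against 191 CPM (186 to 196), or a log2 ratio of 0.30 (0.21 to 0.39). Both ratios were below 1.5-fold. The upper quartile of the log2 ratios over all genes averaging 5 CPM or more was 0.25 in stromal and 0.17 in mesothelial cells. How many of all genes were higher in both classes beyond counting error was not counted. The thinned shares had the same order, 71.2% and 62.0% of stromal cells (87.4% and 73.5% without thinning) and 78.1% and 71.8% of mesothelial cells (95.2% and 87.2%). The intervals of the thinned mesothelial shares overlap, at 72.5 to 83.1 and 69.6 to 73.8.

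Osmr (ENSMUSG00000022146, chr15:6813577-6874969, minus strand), the chain that binds oncostatin M together with gp130, stood at 91.1 CPM (88.5 to 93.7) in Tom+ against 112 CPM (109 to 115) in Tom- stromal cells, with a log2 ratio of -0.30 (-0.36 to -0.25). In mesothelial cells it was 44.7 CPM (39.2 to 50.8) and 46.4 CPM (44.0 to 48.8). The other receptor, Il1r1 (ENSMUSG00000026072, chr1:40225080-40317257, plus strand), through which IL-1 signals, was alike in pattern. It was at 98.1 CPM (95.4 to 101) in Tom+ against 132 CPM (129 to 135) in Tom- stromal cells, with a log2 ratio of -0.43 (-0.48 to -0.38), and at 44.2 CPM (38.7 to 50.2) and 42.7 CPM (40.5 to 45.0) in mesothelial cells. For both receptors the stromal difference was below 1.5-fold, and the mesothelial intervals of the libraries overlap. Weighted to the same clusters, the stromal log2 ratios were 0.03 for Osmr and -0.01 for Il1r1, so no direction between the libraries is read for either.

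Stat3 (ENSMUSG00000004040, chr11:100885098-100939540, minus strand), the transcription factor that gp130 activates, was the most even of the 9 genes over the 4 groups of cells. It stood at 244 CPM (239 to 248) in Tom+ against 284 CPM (280 to 288) in Tom- stromal cells and at 215 CPM (203 to 228) and 231 CPM (225 to 236) in mesothelial cells, with log2 ratios of -0.22 (-0.25 to -0.19) and -0.10 (-0.19 to -0.01). The stromal ratio turned to 0.11 with the clusters weighted alike, and no direction is read from it. STAT3 activity depends on phosphorylation, which RNA does not report.

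Socs3 (ENSMUSG00000053113, chr11:117966079-117970047, minus strand), the feedback inhibitor whose window inside the gene held the STAT letters, was lower in Tom+ stromal cells. It stood at 502 CPM (496 to 509) against 909 CPM (901 to 916), 1.81-fold or a log2 ratio of -0.85 (-0.88 to -0.83). In mesothelial cells it was 206 CPM (194 to 219) against 267 CPM (261 to 272), with a log2 ratio of -0.37 (-0.46 to -0.28). In the mesothelial cells of cluster 12 alone, described further on, the log2 ratio was -0.23 (-0.33 to -0.13). Unlike Il6, Socs3 was found in most stromal cells, 81.1% of Tom+ and 88.8% of Tom- cells after thinning (88.4% and 90.2% without), and the cells with 5 or more UMIs made up 32.1% and 52.0%.

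Over the 9 genes, the thinned share of stromal cells with a UMI was lower in the Tom+ library, with intervals that do not overlap, for 6 (Il6, Il33, Osmr, Il1r1, Socs3 and Stat3) and higher for 1 (Il6st), against 12.8% and 29.3% of the 9778 genes. Without thinning, where Tom+ cells are deeper, it was lower for 2 (Il6 and Il33) and higher for 2 (Il6st and Csf1), against 3.25% and 78.7% of genes.

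**Figure D3:**
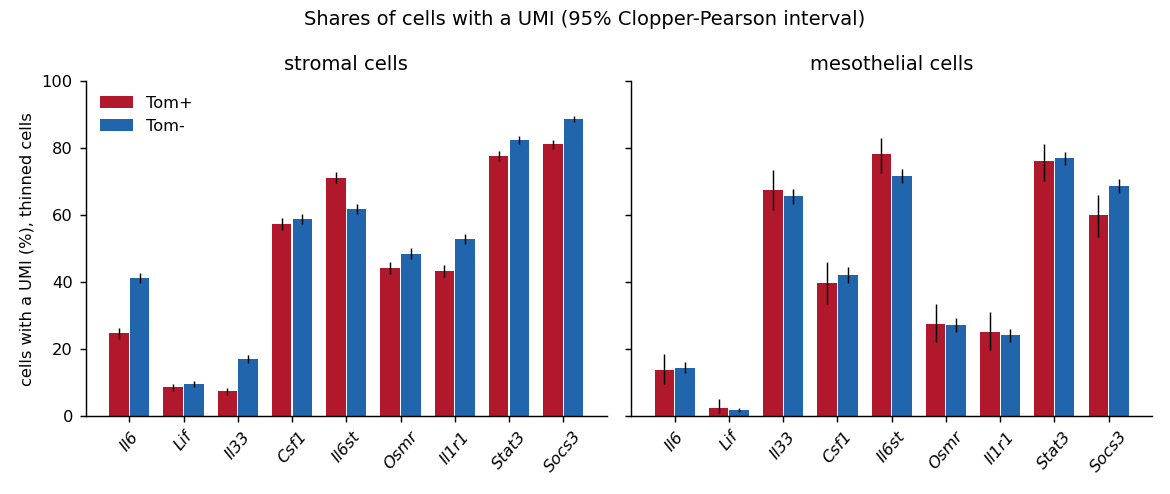
Share of thinned cells (7563 UMIs each) with at least 1 UMI of each gene, in percent, for stromal cells on the left and mesothelial cells on the right, as bars per library with 95% Clopper-Pearson intervals. Il6 is found in 24.7% of Tom+ and 41.3% of Tom- stromal cells and Il33 in 7.39% and 17.1%, while both libraries have Il33 in about the same share of mesothelial cells (67.6% and 65.7%).

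Between the classes, the order was the same in both libraries. Il33 was higher in mesothelial than in stromal cells by 10.8-fold in the Tom+ library (log2 ratio 3.43, 3.30 to 3.56) and by 3.88-fold in the Tom- library (1.96, 1.89 to 2.02). It was the 1 of the 9 genes past 1.5-fold in that direction, against 22.6% of 10240 genes in the Tom+ and 21.0% of 10019 genes in the Tom- library. The other cytokines, both other receptors and Socs3 were lower in mesothelial cells, 6 of 9 genes in each library against 16.2% and 13.9% of genes. Il6 was lower by 6.53-fold and 6.60-fold, Lif by 5.64-fold and 7.62-fold, Il1r1 by 2.22-fold and 3.09-fold, Osmr by 2.04-fold and 2.42-fold, Socs3 by 2.44-fold and 3.41-fold, and Csf1 by 1.58-fold and 1.72-fold. The signal chain itself was more even: the log2 ratio of mesothelial over stromal was 0.46 and 0.49 for Il6st and -0.18 and -0.30 for Stat3. Median-of-ratios size factors moved these class ratios by 0.101 and 0.123 on the log2 scale, and no count of genes past 1.5-fold with it. Over the alternatives, the Il6 log2 ratio lay between -2.84 and -2.49 in the Tom+ and between -3.31 and -2.67 in the Tom- library.

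The stromal cells were not uniform, and the libraries differed in which stromal cells they held. All passing cells of both classes were clustered together, without the 9 genes and without the pathway genes described below, into 13 clusters that keep their numbers here. Cluster 9, led by Cpxm2, Mfap4, Mgp, Adamts9 and Cxcl13, had the highest Il6 of the clusters, 1063 CPM over both libraries, and cluster 10, led by Vdr, Hsd11b1 and Ccl11, followed at 509 CPM. Cluster 6, led by Pi16, Efhd1 and Cd55, stood at 282 CPM. At the other end were cluster 1 (Edn1, Sytl2, Adm) at 46.1 CPM and cluster 12, the mesothelial cells (Msln, Upk3b), at 32.4 CPM. Cluster 9 made up 6.77% of Tom+ and 18.8% of Tom- stromal cells, cluster 10 4.47% and 16.2%, and cluster 1 27.5% and 5.19%. Thus the clusters with high Il6 were less frequent, and the cluster with the lowest stromal Il6 more frequent, in the Tom+ library. Cluster 9 alone held 30.0% of Il6 UMIs of Tom+ and 51.4% of those of Tom- stromal cells, and 33.6% and 53.4% of the Il33 UMIs. The clusters were formed on genes that themselves differ between the libraries, and the part of the library itself in the separation of clusters was not tested.

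Within clusters, the Il6 difference did not have one direction. Of the 8 stromal clusters with at least 30 cells of each library, Il6 was lower in Tom+ cells beyond counting error in 4 and higher in 2. In cluster 9 it was 962 CPM in Tom+ against 1090 CPM in Tom- cells (log2 ratio -0.18, -0.24 to -0.12), and in cluster 10 it was 527 and 505 CPM (0.06, -0.04 to 0.16). Cluster 8, led by Agt, Igf1 and G0s2 and the most frequent among Tom- stromal cells, had 140 CPM in Tom+ against 86.9 CPM in Tom- cells (0.69, 0.58 to 0.80). The widest gap in the other direction was in cluster 4, led by immunoglobulin genes, at 106 and 245 CPM (-1.21, -1.37 to -1.04). With the Tom+ clusters weighted by the Tom- share of UMIs, Il6 stood at 358 CPM in Tom+ against 381 CPM in Tom- cells of these clusters, with a log2 ratio of -0.09 in place of -1.12, and the mean ratio within the clusters was -0.07. Lif, Osmr, Il1r1 and Stat3 had weighted log2 ratios of 0.24, 0.03, -0.01 and 0.11.

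Socs3 and Il33 were lower in Tom+ cells within most clusters as well. Socs3 was lower beyond counting error in 7 of the 8 clusters and higher in 1, the immunoglobulin-led cluster 4. It stood at 858 against 1233 CPM in cluster 10, at 766 against 1162 CPM in cluster 8 and at 454 against 644 CPM in cluster 1. The weighted log2 ratio was -0.55 and the mean within clusters -0.48, both within 1.5-fold. Il33 was lower in 7 of the 8 clusters, in 5 of them beyond counting error, with a weighted log2 ratio of -0.53 and a mean of -0.85. Its levels were 117 CPM in Tom+ against 164 CPM in Tom- cells of cluster 9 and 13.3 against 46.7 CPM in cluster 3 (Aspn, Gsc, Cd36), while cluster 8 had 16.3 against 14.0 CPM, with overlapping intervals. Il6st was higher in Tom+ cells in all 8 clusters and beyond counting error in 6, with a weighted log2 ratio of 0.35 that is close to the ratio of 0.33 without weights. In cluster 1 it was 200 against 132 CPM, and in cluster 9 its log2 ratio was the smallest, 0.16, at 153 against 137 CPM. How many of all genes moved one way in as many clusters was not counted, for Il6st, Socs3 or Il33.

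**Figure D4:**
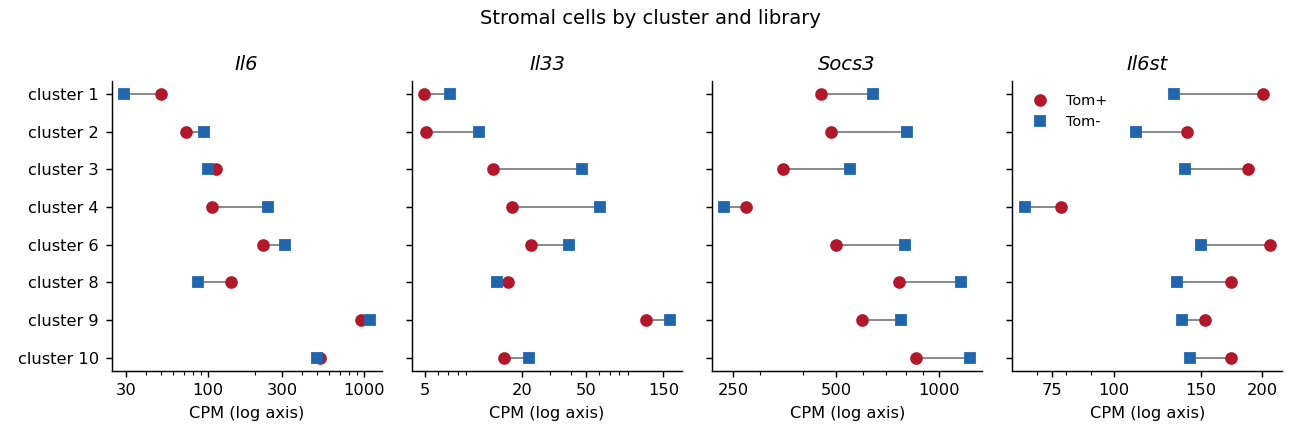
CPM (log axis) of Il6, Il33, Socs3 and Il6st in the 8 stromal clusters with at least 30 cells of each library, 1 point for Tom+ and 1 for Tom- cells of a cluster joined by a line. Il6 differs more between clusters (962 and 1090 CPM in cluster 9, 49.8 and 29.0 CPM in cluster 1) than between the libraries within them, while Socs3 is lower in Tom+ cells in 7 of 8 clusters and Il6st higher in all 8.

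In the mesothelial cells, cluster 12 held 228 Tom+ and 1762 Tom- cells of this class, with Il6 at 28.2 and 33.0 CPM (log2 ratio -0.22, -0.50 to 0.04). The rest of the Tom- mesothelial Il6 lay mostly in cluster 13, led by Iglc1, Sox6, Epha2 and Muc16, which held 9 Tom+ and 114 Tom- mesothelial cells. Of the latter, 92 (80.7%) were doublet calls, and the 114 cells had Il6 at 297 CPM and Lum at 504 CPM.

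The genes around these 9 were followed as a list of 59 pathway genes. Among the targets that STAT3 or its partners are known to induce in inflammation (Bcl3, Cebpd, Pim1, Mcl1, Timp1, Lbp, Saa3, Ccl2), 5 of 8 were lower in Tom+ stromal cells by more than 1.5-fold and 0 were higher, against 3.25% and 3.86% of the 9778 genes. Ccl2, a chemokine that draws monocytes, stood at 789 against 1604 CPM, with a log2 ratio of -1.02 (-1.04 to -1.01). Timp1, an inhibitor of matrix proteases, was at 70.7 against 138 CPM (-0.96, -1.02 to -0.91), and Bcl3, a nuclear regulator of NF-kB, at 38.2 against 61.5 CPM (-0.69, -0.77 to -0.61). The other two, the acute phase genes Saa3 and Lbp, had log2 ratios of -0.67 and -0.63. Weighted to the same cluster make-up, the log2 ratios were -0.48 for Ccl2, -0.60 for Timp1, -0.12 for Bcl3, 0.49 for Saa3 and -0.36 for Lbp. Ccl2 and Lbp were lower beyond counting error in all 8 clusters. Timp1 was lower in 5 and higher in 2, Saa3 lower in 3 and higher in 2, and Bcl3 lower in 1 and higher in 1. How many of all genes moved one way in as many clusters was not counted for these targets either.

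Outside the targets, few pathway genes differed between the libraries. Of the 39 list genes averaging 5 CPM or more in stromal cells, 1 was higher and 5 were lower by more than 1.5-fold, against 3.86% and 3.25% of all genes tested, with a median log2 ratio of -0.18. The 5 lower ones are the targets just named, and 1 of 39 is about the share of all genes. None of the 5 receptors, the 12 kinases, factors and inhibitors or the 11 genes of the IL-1 and IL-33 system was past that fold, and 0 of the 8 other IL-6 family ligands reached 5 CPM. The gene that was higher was Csf1r, the receptor of CSF1, a macrophage gene, at 8.40 CPM in Tom+ against 2.38 CPM in Tom- cells (log2 ratio 1.82, 1.54 to 2.10). Immune markers (Ptprc, Adgre1, Cd68, Lyz2, Cd79a, Cd3e) moved with it, at a summed 194 and 49.7 CPM in stromal and 338 and 22.9 CPM in mesothelial cells, none of the 6 at 0. In mesothelial cells Csf1r was at 48.7 and 12.3 CPM (1.98, 1.75 to 2.21). It was found in 62 of 250 Tom+ (24.8%) and 292 of 1887 Tom- (15.5%) mesothelial cells, or 14.2% and 7.61% after thinning. Of the same 250 and 1887 cells, Ptprc was found in 11 and 9, and Adgre1 in 13 and 2. Cd68 was found in 55 of the 250 Tom+ mesothelial cells, and no Tom- count is set beside it. The highest single immune marker stood at 275 CPM in Tom+ mesothelial and at 130 CPM in Tom+ stromal cells. The part of immune cells in the Csf1r difference was not tested.

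Of the 40 list genes averaging 5 CPM or more in mesothelial cells, 1, Csf1r, was higher in the Tom+ library and 1 was lower, shares close to the 1.87% and 1.16% of all genes, with a median log2 ratio of -0.01. The lower one was Cntfr, the receptor chain for ciliary neurotrophic factor, at 4.32 and 7.08 CPM (-0.71, -1.40 to -0.09). The next in size were Csf2ra, a chain of the GM-CSF receptor, at 12.4 and 8.47 CPM (0.55, 0.14 to 0.94), and Lbp at 67.1 and 94.3 CPM (-0.49, -0.65 to -0.33).

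The chains that complete the receptors were present in both libraries. Il6ra stood at 50.7 CPM in Tom+ against 48.8 CPM in Tom- stromal cells (log2 ratio 0.06, -0.02 to 0.13) and at 60.9 and 46.9 CPM in mesothelial cells. Lifr was a stromal gene, at 56.5 and 64.3 CPM in stromal but 7.14 and 8.59 CPM in mesothelial cells, log2 ratios of mesothelial over stromal of -2.99 (-3.49 to -2.52) in the Tom+ and -2.90 (-3.08 to -2.73) in the Tom- library. Il1rap, the shared chain of the IL-1 and IL-33 receptors, stood at 7.81 and 9.33 CPM in stromal and 19.2 and 14.6 CPM in mesothelial cells. The IL-33 receptor Il1rl1 was low in all 4 groups, at 4.17 and 1.75 CPM in stromal and 1.13 and 0.525 CPM in mesothelial cells. Its stromal UMIs lay in few cells, 43 of the Tom+ and 37 of the Tom- library.

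Some pathway genes stood at higher levels in mesothelial than in stromal cells. In the comparison of classes, 13 of 41 list genes were higher and 13 lower in mesothelial cells of the Tom+ library, and 10 higher and 14 lower in the Tom- library. Of all genes, 22.6% were higher and 16.2% lower in the Tom+ library and 21.0% and 13.9% in the Tom- library. The list had median log2 ratios of -0.02 and -0.09. Ctf1, which encodes cardiotrophin 1, a gp130 cytokine, was at 37.0 CPM in mesothelial and 0.724 CPM in stromal cells of the Tom+ library (log2 ratio 5.68, 5.16 to 6.22) and at 33.7 and 1.02 CPM in the Tom- library (5.05, 4.67 to 5.45). The acute phase gene Saa3 reached 1788 against 111 CPM (4.01) and 1779 against 177 CPM (3.33), and Il18, a cytokine of the IL-1 family, 158 against 15.4 CPM (3.36) and 186 against 20.8 CPM (3.16).

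Tissue digestion is known to induce immediate early genes, so the 3 genes that differed were also set against a list of 20 such genes (Fos, Jun, Egr1, Atf3, Dusp1 and others, heat shock genes included). Their summed level was 35070 CPM in Tom+ against 41940 CPM in Tom- stromal cells, and 33640 and 35820 CPM in mesothelial cells, so it moved with the library. In stromal cells 3 of the 20 (Ier3, Nr4a1 and Hspa1a, named after their values were seen) were lower in the Tom+ library by more than 1.5-fold (3.25% of all genes) and 0 higher (3.86%), and in mesothelial cells 0 either way (1.16% and 1.87%). Between the classes, 5 were higher and 5 lower in mesothelial cells of the Tom+ library, and 3 and 5 in the Tom- library, beside 22.6% and 16.2% of all genes in the Tom+ and 21.0% and 13.9% in the Tom- library. Thinned stromal cells were then split into 3 ranges of the summed UMIs of the list. From the lowest to the highest range, Il6 went from 227 to 151 and 117 CPM in Tom+ and from 576 to 431 and 190 CPM in Tom- cells. Stromal cells with more immediate early RNA thus had less Il6 in both libraries. The ranges mix clusters, and not all clusters followed this order. Cluster 10 had the highest summed immediate early level, 47164 CPM, with Il6 at 509 CPM. Cluster 4 had the lowest, 17527 CPM, with Il6 at 138 CPM. The part of the cluster make-up in the order over the ranges was not tested. Within the ranges the log2 ratios of Tom+ over Tom- were -1.35, -1.51 and -0.70 for Il6, -1.72, -1.56 and -1.47 for Il33, and -0.92, -0.75 and -0.70 for Socs3. Socs3 had the opposite order over the ranges, at 443, 568 and 654 CPM in Tom+ and 836, 957 and 1059 CPM in Tom- cells.

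**Figure D5:**
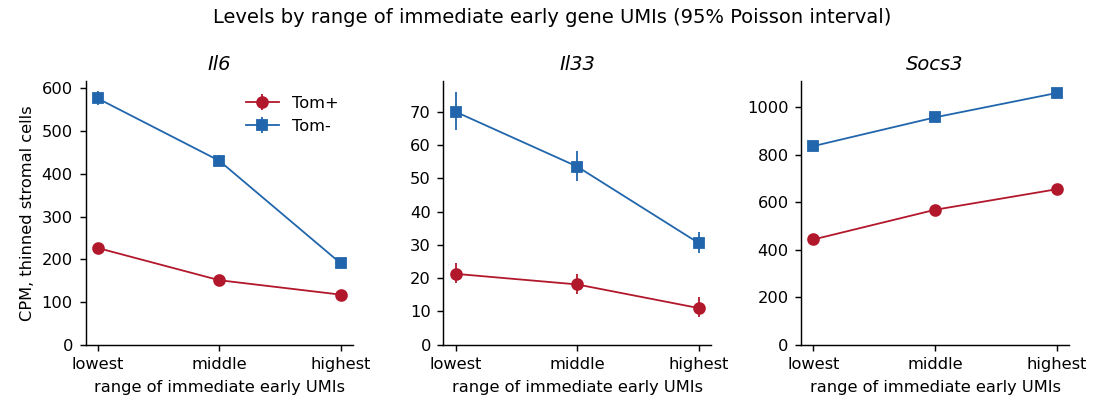
CPM of Il6, Il33 and Socs3 in thinned stromal cells against 3 ranges of their summed immediate early gene UMIs, with 95% Poisson intervals, 1 line per library. The Tom+ line lies below the Tom- line in every range for all 3 genes. Il6 and Il33 are lower, and Socs3 higher, in the highest than in the lowest range of both libraries.

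The reporter's own RNA gave a contrast within 1 preparation. Among thinned Tom+ stromal cells, 619 had a tdTomato UMI and 2373 had none. Il6 was at 197 CPM in the former and 168 CPM in the latter (log2 ratio 0.22, 0.12 to 0.33), Socs3 at 530 and 538 CPM (-0.02, -0.09 to 0.04) and Il33 at 16.5 and 18.1 CPM (-0.14, -0.52 to 0.22). So none of the 3 genes that were lower in the Tom+ library was lower, beyond counting error, in its cells with reporter RNA than in those without. Lif and Csf1 were lower in the cells with reporter RNA, with log2 ratios of -0.55 (-0.96 to -0.17) and -0.28 (-0.41 to -0.15), and so was Il6st, at 164 against 183 CPM (-0.16, -0.27 to -0.05). In the Tom- library, 367 stromal cells with a tdTomato UMI had Il6 at 294 CPM against 380 CPM in 3786 cells without (-0.37, -0.48 to -0.27). There Il33 was lower too, at 38.9 against 49.6 CPM (-0.35, -0.65 to -0.07), and so was Socs3, by little, at 927 against 969 CPM (-0.06, -0.12 to -0.01). All cells of the Tom+ library were sorted as tdTomato-positive, so its split is by whether a reporter UMI was caught at this depth. It cannot show how positive and negative cells differ. In the Tom- library, free RNA can put a UMI into a Tom- cell.

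Some of the 9 genes were found together in the same thinned stromal cells more often than others. Of the cells with an Il33 UMI, 53.9% (47.0 to 60.6) also had an Il6 UMI in the Tom+ library, against 22.4% of cells without Il33. In the Tom- library the shares were 64.2% (60.6 to 67.8) and 36.6%. Cells with Il6 also more often had the receptor genes: Osmr was found in 57.4% of Tom+ cells with and 39.8% without Il6 (56.7% and 42.8% in the Tom- library), and Il1r1 in 57.0% and 39.0% (60.2% and 47.5%). For Il6st the shares were closer, 72.7% and 70.7% in the Tom+ and 63.3% and 61.0% in the Tom- library. All cells were at the same depth here, but cells of 1 cluster share many genes, so this is a description of which RNAs lie in the same clusters as well as in the same cells.

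Across 20 groups of at least 50 cells (a cluster in a library), the genes whose levels, as log2(CPM + 1), followed each cytokine most closely were found among 8157 genes. They were Clasp2, Eprs and Adamts4 for Il6 (Pearson r of 0.904, 0.897 and 0.896), Enc1, Tnfaip2 and Adamts4 for Lif (0.926, 0.900 and 0.897), Gch1, Sntg1 and Pde4b for Il33 (0.916, 0.893 and 0.875) and Umad1, Jcad and Prrg1 for Csf1 (0.911, 0.896 and 0.886). These groups share 2 libraries and the clusters were made from the same cells, so the values describe a likeness only. Adamts4, a protease of the matrix, was among the 3 genes closest to both Il6 and Lif.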

How the data were processed

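The authors deposited, for each library, whole-number UMI counts per gene and barcode, made with Cell Ranger 3.0.2 on mm10 per the submitters' processing notes, from 10x 3′ v3.1 libraries. They are 3′ counts, deposited without normalization and scaled to CPM here. Levels and shares of different genes set side by side are descriptions, not measured differences between genes. No column of another sample was present. The 9 genes and all lists were chosen with earlier results of these data known.

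Cells were kept at more than 1000 and fewer than 7000 genes and under 8% mitochondrial UMIs, the limits of the study. UMIs were summed per library and class and scaled to CPM, with exact Poisson intervals for levels, Clopper-Pearson intervals for shares and exact conditional intervals for ratios, at 95%. PCR copies were collapsed by UMI. "Past the fold" means a ratio of at least 1.5 either way, among genes averaging 5 CPM or more. For shares, a fixed depth of 7563 UMIs was used, the 10th percentile of both classes, and 3, 271, 99 and 647 shallower cells (Tom+ mesothelial and stromal, Tom- mesothelial and stromal) were left out. Doublets were kept in the main values. Scrublet called 2 Tom+ (0.0568%) and 122 Tom- (1.82%) cells, so in the Tom+ library the caller cannot be taken to have worked. Clusters came from the Leiden method on 2000 variable genes, 30 principal components and 20 neighbours at resolution 0.6, with no correction between libraries.

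Named were the 9 genes, the receptor chains Il6ra, Lifr, Il1rap, Il1rl1 and Csf1r, and the 4 pathway genes with the largest absolute log2 ratio in each comparison. Saa3 and Lbp in stromal cells were added after their values were seen. The marker lists not given in the report, summed over Tom+ stromal, Tom- stromal, Tom+ mesothelial and Tom- mesothelial cells in that order, were as follows. Preadipocyte markers were at 2053, 1896, 199.7 and 181 CPM, and interstitial progenitor markers at 688, 852, 970 and 952 CPM. Endothelial markers were at 73.3, 68.2, 146 and 96.8 CPM, mural markers at 65.9, 38.5, 18.4 and 10.1 CPM, and glial markers at 2.33, 1.31, 1.69 and 1.17 CPM.

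Alternatives changed the mitochondrial limit, the class limits, the scaling, the weighting of cells, the low-level filter, doublets, shared barcodes, immunoglobulin cells, thinning, immediate early gene ranges and, chosen after seeing the data, the clusters. Promoter windows came from RefSeq and gene positions from the GRCm38 annotation. Summing and intervals were tested on simulated data drawn with Poisson counting error only, the error that the intervals assume. That test cannot show whether they cover the spread between cells or libraries. Over thinned Tom+ and Tom- stromal cells, the variance of UMIs was 14.8 and 15.7 times the mean for Il6. It was 5.54 and 8.65 times for Socs3, and 1.20 and 1.12 times for Il6st. Poisson counting alone makes variance and mean equal, so for Il6 and Socs3 the intervals do not cover the spread between cells. Python 3.11.15, numpy 2.4.6, scipy 1.17.1, pandas 2.3.3, scanpy 1.11.5 and leidenalg 0.10.2 were used.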

Additional observations from a re-analysis of the deposited data

How the results depend on the processing

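The count of 3 genes past 1.5-fold between Tom+ and Tom- stromal cells was the same under every alternative but those that set the clusters alike, which were chosen after seeing the data: it became 1 (Il33) as the mean within clusters and 0 with Tom+ cells weighted to the Tom- clusters. These cluster values cover only the 8 clusters with at least 30 cells of each library, without cluster 11 and its Il33. Without the clusters led by immunoglobulin and mast cell genes the count stayed at 3, with Il6 at -1.06. In mesothelial cells the count of 1 (Il6) became 0 without doublet calls, with cells thinned and as the mean within 3 ranges of immediate early genes. Between the classes the count of 7 genes was the same in both libraries under each alternative. The 6 genes with a lower share of Tom+ stromal cells became 2 without thinning. Of 360 alternative values, all for the genes chosen by name at the start, 242 moved by less than their interval and 118 by more. Of these values, 0 reversed a gene that was past 1.5-fold in the main values. Sign changes of genes within that fold were counted as moved. Weighted to the Tom- clusters, the stromal log2 ratios of Lif, Osmr, Csf1 and Stat3 turned from negative to 0.24, 0.03, 0.08 and 0.11. The pathway genes were not among the 360 values. Saa3, past 1.5-fold in stromal cells at -0.67, turned to 0.49 with the same weights. Over the 13 alternatives for stromal cells, the log2 ratio lay between -1.19 and -0.07 for Il6, -1.72 and -0.53 for Il33, -0.92 and -0.48 for Socs3 and 0.27 and 0.41 for Il6st. No paired analysis was possible because each group is 1 library. Depth limits Lif (18 Tom+ UMIs) and Il1rl1 (6 Tom+ and 17 Tom- UMIs) in mesothelial cells. In stromal cells Il1rl1 lay in few cells, with 213 UMIs in 43 Tom+ and 101 UMIs in 37 Tom- cells.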

Other observations

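A small stromal cluster had much Il33 and little Socs3. Cluster 11, led by Calca, Ncam1 and Cxcl5, held 211 cells, 28 of them from the Tom+ library, too few for a ratio between libraries. Over both libraries, Il33 stood there at 160 CPM (144 to 177), below the mesothelial cluster 12 at 218 CPM and with an interval that overlaps that of cluster 9, at 154 CPM (147 to 161), while Socs3 was at 164 CPM (148 to 182), the lowest of the clusters compared and below the 236 CPM of cluster 12. Its Il1r1 level of 181 CPM (164 to 199) equalled that of cluster 9 within counting error. Cluster 11 made up 0.858% of Tom+ and 3.65% of Tom- stromal cells and held 2.52% and 10.8% of their Il33 UMIs.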
